A study of Mus musculus with 6 samples.

Results

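The 10 genes described here encode the D-type cyclins (Ccnd1, Ccnd2 and Ccnd3), their kinases (Cdk4 and Cdk6), the CIP/KIP inhibitors of cyclin-dependent kinases (Cdkn1a, Cdkn1b and Cdkn1c) and 2 INK4 inhibitors (Cdkn2c and Cdkn2d). They were taken by symbol from a deposited table of 16403 genes, and all 10 were among the 12564 genes that passed the filter on low counts. The libraries were made from LSK cells, the lineage-negative, Sca-1-positive, Kit-positive fraction of mouse bone marrow that holds blood stem cells and early multipotent progenitors. LIP libraries came from C57BL/6 mice that carried a ligature causing periodontitis until marrow was taken on day 7, and they were set against NL libraries from C57BL/6 mice without a ligature. Each group had 3 libraries and each library pooled the sorted cells of 3 mice, so the spread between libraries is a spread between pools.

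D-type cyclins are made in response to growth signals, bind CDK4 or CDK6 and start the phosphorylation of the retinoblastoma protein, which releases E2F transcription factors and lets a cell pass from G1 into S phase. INK4 proteins bind CDK4 and CDK6 themselves and keep the cyclins away. CIP/KIP proteins bind cyclin-kinase complexes, block CDK2 and also take part in assembling cyclin D complexes. In blood stem cells, p57 (Cdkn1c) and p27 (Cdkn1b) are known for holding cells in quiescence, and CDK6 for governing how fast a quiescent stem cell leaves it.

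Library totals ranged from 17780853 to 18841103 counts. At this depth 3 counts corresponded to 0.157 to 0.171 CPM (counts scaled to library size, here with TMM factors), a floor that covers counting error only. Kit, which encodes a receptor used in the sort, averaged 581 ± 9.52 CPM in LIP and 512 ± 3.73 CPM in NL (SD, n = 3 each), and Ly6a, which encodes Sca-1, averaged 37.0 ± 2.40 and 38.7 ± 0.803 CPM in LIP and NL. Kit was thus higher in LIP, at a log2 fold change of 0.18 with an adjusted p of 8.16e-06 in edgeR, and was called in 19 of 19 alternatives. Ly6a was not called, at -0.07 with an adjusted p of 0.386 in edgeR. Its deposited counts were not whole numbers, so how its reads were assigned is uncertain. Many markers of other cell types differed between the groups. In the counts that follow, a gene rose or fell if its adjusted p in edgeR was below 0.05. Of all tested genes 14.1% rose and 15.8% fell by this rule. Of 10 neutrophil markers 8 rose, with a summed level of 317 to 340 CPM in LIP and 223 to 239 CPM in NL. All 8 granulocyte-monocyte progenitor markers rose, with sums of 7979 to 8377 CPM in LIP and 6578 to 6597 CPM in NL. Of 8 B-lineage markers 6 rose, with sums of 89.6 to 93.0 CPM in LIP and 71.7 to 73.4 CPM in NL, and of 8 erythroid markers 1 rose and 4 fell, with sums of 510 to 557 CPM in LIP and 578 to 598 CPM in NL. Of the T and NK, megakaryocyte and stromal lists 3 of 6, 3 of 7 and 2 of 4 tested genes rose, with 1 stromal gene lower. The megakaryocyte sums overlapped, at 166 to 178 CPM in LIP and 156 to 169 CPM in NL. Sums of the T and NK list were 150 to 163 CPM in LIP and 133 to 142 CPM in NL. Those of the stromal and endothelial list were 233 to 235 CPM in LIP and 197 to 206 CPM in NL. In that list Pdgfrb and Pecam1 rose and Emcn fell, while Cdh5, Lepr and Col1a1 did not pass the filter. Of 8 heat shock and immediate-early genes, which respond to handling of cells, 7 fell, with sums of 450 to 459 CPM in LIP and 815 to 823 CPM in NL. No gene of these lists had 0 counts in any library. Their part in the results below was not tested, and in bulk RNA fewer cells of a type and less RNA per cell cannot be told apart.

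In LSK cells of LIP mice Cdk6 was higher by a factor of 1.14 and Cdkn1b lower by a factor of 1.17, and these were the best supported changes in the family. Ccnd1, Ccnd2 and Cdk4 were lower by factors of 1.10, 1.08 and 1.06 on the TMM scale, while on uncentred TPM none of them was called and Ccnd2 and Cdk4 turned positive. Of the 10 genes 1 rose and 4 fell at an adjusted p below 0.05 in edgeR's quasi-likelihood test, adjusted over all tested genes, and 5 were not called. The background of calls over all tested genes was 29.9%, made of 14.1% with higher and 15.8% with lower levels in LIP. The median log2 fold change was -0.04 over the 10 genes and -0.00072 over all tested genes, and the median absolute change was 0.10 in each set. The CPM of LIP and NL libraries did not overlap in 6 of the 10 genes, against 40.9% of all tested genes. A split into 1 higher and 4 lower depends on the scaling. On the deposited TPM values (transcript levels per length, with the same total in each library) the median of all tested genes was itself 0.12 higher in LIP on the log2 scale, and 5 of the 10 genes were called higher and none lower by limma-trend (Ccnd3, Cdk6, Cdkn1a, Cdkn2c and Cdkn2d). At an unadjusted p below 0.05 limma-trend gave 1 lower, and DESeq2 and limma-voom on the counts gave 3 and 4 lower after adjustment. With each TPM library centred on its median gene, an alternative chosen after seeing the data, 1 was called higher and 3 lower.

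**Figure D1:**
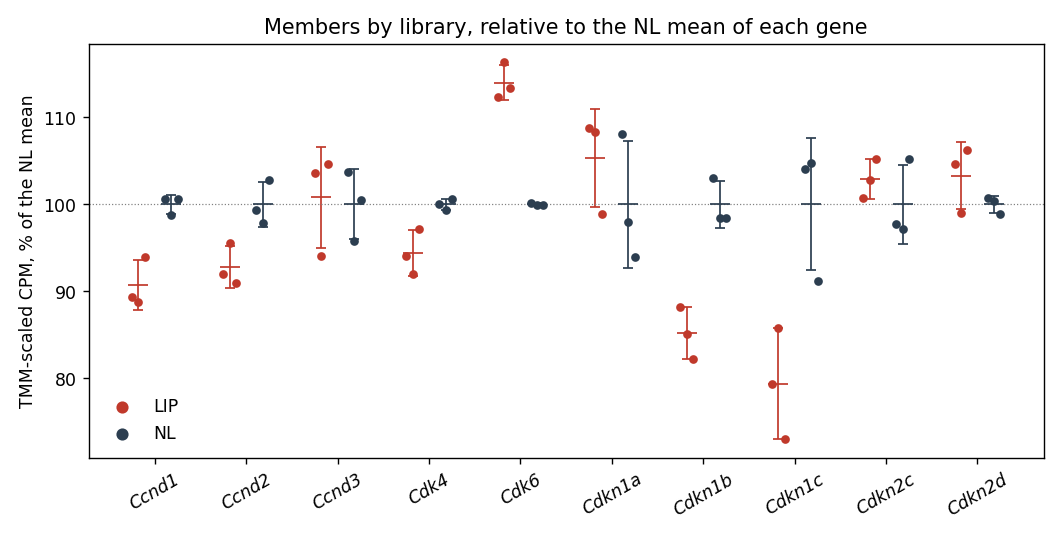
TMM-scaled CPM of each of the 10 genes as a percentage of its NL mean, with a point for each library, the mean as a dash and the SD as a bar (n = 3 each, LIP left of NL). All 3 LIP libraries lie above all 3 NL libraries for Cdk6, and all 3 lie below for Ccnd1, Ccnd2, Cdk4, Cdkn1b and Cdkn1c.

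**Figure D2:**
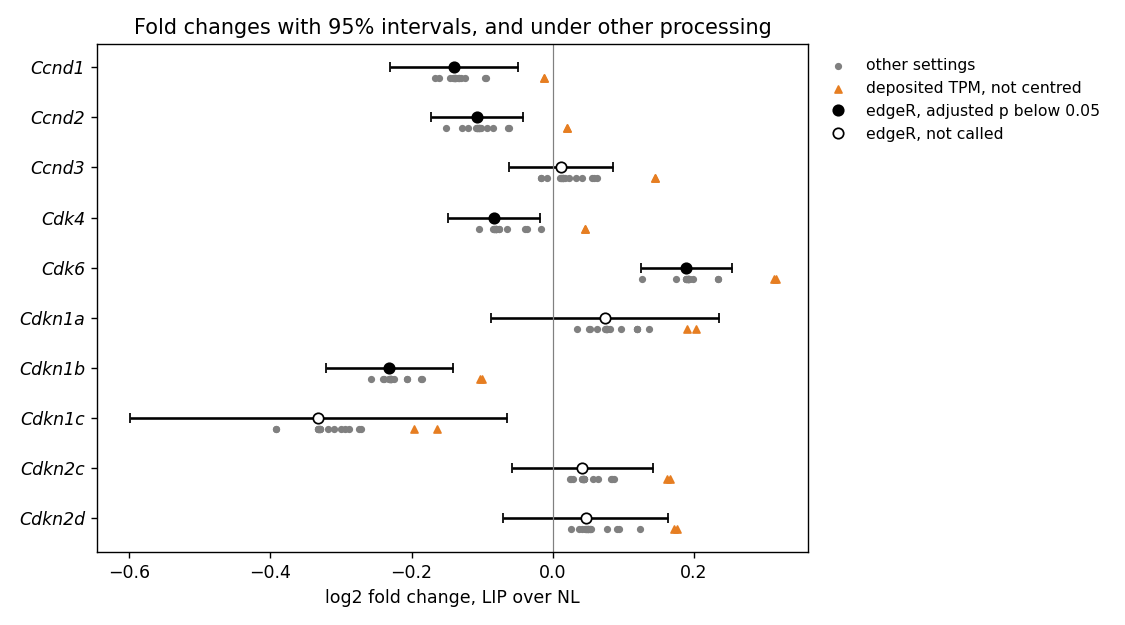
Log2 fold change of LIP over NL for each gene (black circles, 95% intervals not adjusted for multiple tests, filled where the adjusted p was below 0.05), with the same value under 17 other settings in grey and under 2 settings on uncentred TPM as orange triangles. Ccnd2 and Cdk4 change sign on uncentred TPM and Ccnd3 with some libraries left out, while every other member keeps its sign.

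Per transcript length the kinase Cdk4 was by far the most abundant of the family, and Cdkn1c the least. Cdk4 averaged 755 ± 15.6 TPM in LIP and 731 ± 8.90 TPM in NL (SD, n = 3 each, here and for the other TPM means). Ccnd3 came next, with 245 ± 10.6 TPM in LIP and 222 ± 12.4 TPM in NL. The order of the following pair differed between groups. In LIP, Cdk6 (107 ± 3.94 TPM) stood above Ccnd2 (95.4 ± 4.27 TPM), and in NL, Ccnd2 (94.1 ± 2.57 TPM) stood above Cdk6 (85.9 ± 0.390 TPM), with no overlap between these 2 genes within either group. Cdkn2d, Cdkn2c and Cdkn1b formed a middle tier of 42.8 to 44.2 TPM in LIP, where neighbours in the order overlapped. In NL, Cdkn1b (46.0 ± 1.45 TPM) lay above Cdkn2c (39.4 ± 2.02 TPM) without overlap, and Cdkn2c overlapped Cdkn2d (39.2 ± 0.571 TPM). Below them came Ccnd1, with 26.3 ± 0.786 TPM in LIP and 26.5 ± 0.369 TPM in NL, then Cdkn1a, with 14.9 ± 0.889 TPM in LIP and 13.0 ± 1.01 TPM in NL, and Cdkn1c, with 4.14 ± 0.400 and 4.75 ± 0.351 TPM in LIP and NL.

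**Figure D3:**
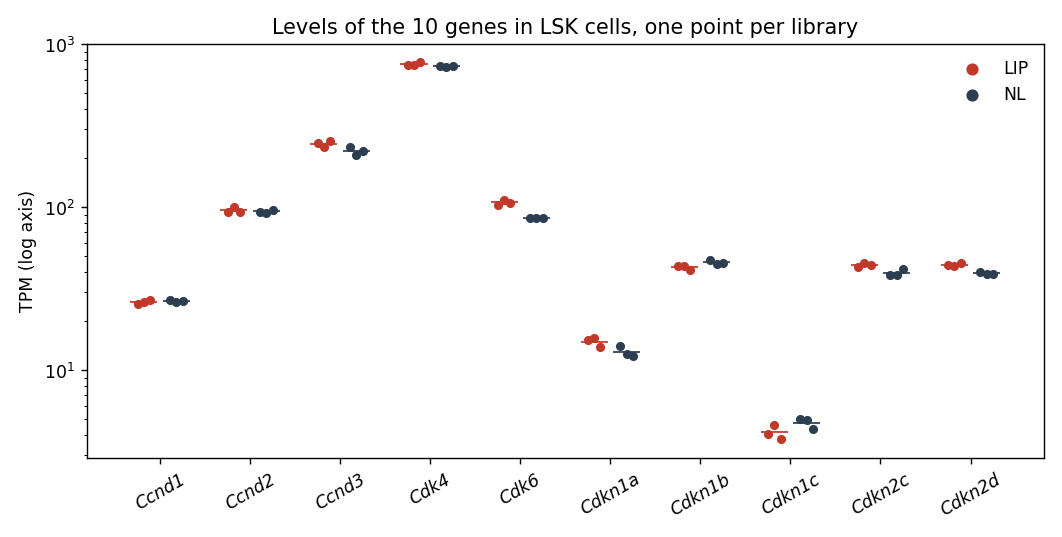
Deposited TPM of the 10 genes on a log axis, with a point for each library and a line at the mean (n = 3 each, LIP left of NL). Levels run from 3.78 TPM in a LIP library for Cdkn1c to between 721 and 772 TPM for Cdk4.

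Among the D cyclins, Ccnd1 and Ccnd2 fell in edgeR, neither of them called on uncentred TPM, while Ccnd3, the most abundant one per length, was not called in edgeR. Ccnd1 (chromosome 7, 144929931 to 144939831 on GRCm38) encodes cyclin D1. Its CPM was 53.9, 53.5 and 56.6 in the LIP libraries, against 60.6, 59.5 and 60.6 in the NL libraries. The groups did not overlap, and the log2 fold change was -0.14 ± 0.05 (SE), with an adjusted p of 0.0137 in edgeR. Its deposited counts were not whole numbers, so how its reads were assigned is uncertain. The call was lost without LIP replicate 1, LIP replicate 2 or NL replicate 1, with adjusted p in edgeR of 0.0501, 0.0624 and 0.0516. DESeq2 gave an adjusted p of 0.0714, edgeR with total counts alone 0.0995 and limma-trend on FPKM 0.131. The call of Ccnd1 was kept in 11 of 19 alternatives.

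Ccnd2 (chromosome 6, 127125162 to 127152188) encodes cyclin D2, the D cyclin best known as a target of cytokine signalling in blood cells. It had 309, 321 and 306 CPM in the LIP libraries, against 334, 329 and 345 CPM in the NL libraries. The highest LIP library lay below the lowest NL library, and the log2 fold change was -0.11 ± 0.03 with an adjusted p of 0.00808 in edgeR, but 0.02 on uncentred TPM. Without NL replicate 3 the adjusted p of Ccnd2 was 0.0836, and with total counts alone it was 0.135, both in edgeR. By limma-trend it was 0.239 on FPKM and 0.0621 on TPM centred on the median gene. The call of Ccnd2 was kept in 13 of 19 alternatives. Ccnd3 (chromosome 17, 47505051 to 47599689) encodes cyclin D3. It had 258, 235 and 261 CPM in the LIP libraries, against 259, 239 and 251 CPM in the NL libraries. These ranges covered each other, and the log2 fold change of 0.01 (95% interval -0.06 to 0.08) had an adjusted p of 0.855 in edgeR. Its counts were not whole either, and its sign turned to between -0.02 and -0.01 without LIP replicate 1, LIP replicate 3 or NL replicate 2. On uncentred TPM the value of Ccnd3 was 0.14, with an adjusted p of 0.0175 by limma-trend.

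The kinase genes went in opposite directions by edgeR, though on uncentred TPM both were positive. Cdk6 (chromosome 5, 3341004 to 3531008) had 676, 699 and 681 CPM in the LIP libraries, against 602, 601 and 601 CPM in the NL libraries. Every LIP library lay above every NL library, and the coefficient of variation was 1.80% in LIP and 0.123% in NL, where counting alone would give 0.881% and 0.973%. The log2 fold change was 0.19 ± 0.03 with an adjusted p of 4.89e-06 in edgeR. The call held in 19 of 19 alternatives, with log2 fold changes from 0.13 to 0.32. The lowest value, 0.13 with an adjusted p of 6.53e-04, came with an offset for transcript length, and the highest from uncentred TPM. Cdk6 has by far the longest effective transcript of the family, 11454 bases, where the other 9 have between 1183 and 5852.

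Cdk4 (chromosome 10, 127063535 to 127067288) had 529, 517 and 546 CPM in the LIP libraries, against 562, 559 and 565 CPM in the NL libraries. The groups did not overlap, but the log2 fold change was only -0.08 ± 0.03 and the adjusted p of 0.0444 in edgeR was close to the threshold. On uncentred TPM Cdk4 was at 0.05, with all 3 LIP libraries above NL, and with the length offset at -0.02 with an adjusted p of 0.727. The call was kept in 4 of 19 alternatives. It was lost without LIP replicate 1 (0.0991), LIP replicate 2 (0.175), NL replicate 1 (0.109), NL replicate 2 (0.111) or NL replicate 3 (0.135), all adjusted p in edgeR. As a ratio within each library, which no scaling of libraries alters, Cdk6 over Cdk4 TPM was -2.84, -2.75 and -2.87 on the log2 scale in the LIP libraries, against -3.10, -3.08 and -3.10 in the NL libraries. Cdk6 made up 12.3%, 12.9% and 12.1% of the summed Cdk4 and Cdk6 TPM in LIP, against 10.5%, 10.6% and 10.5% in NL. This share was chosen after the values were seen and is given as a description. It sets a long transcript against a short one, so it carries any trend on length.

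The 250 bases before a start of each kinase gene are shown because both hold CACGTG, the E-box that MYC proteins recognise, marked in capitals (RefSeq, GRCm38.p6, plus strand, chr10:127063285-127063534 for Cdk4 and chr5:3343643-3343892 for Cdk6, 5′ to 3′).
Cdk4: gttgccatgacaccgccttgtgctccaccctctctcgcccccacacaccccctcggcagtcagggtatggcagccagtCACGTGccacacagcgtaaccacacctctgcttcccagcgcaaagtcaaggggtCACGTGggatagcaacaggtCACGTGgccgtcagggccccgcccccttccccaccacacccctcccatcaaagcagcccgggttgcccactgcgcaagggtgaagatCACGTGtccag
Cdk6: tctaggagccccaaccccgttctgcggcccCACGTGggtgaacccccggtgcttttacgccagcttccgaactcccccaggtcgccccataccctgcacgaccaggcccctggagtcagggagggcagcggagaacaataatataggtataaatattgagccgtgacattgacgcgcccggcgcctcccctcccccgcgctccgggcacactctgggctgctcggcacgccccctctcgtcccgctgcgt
CACGTG stood 4 times in the Cdk4 window and 1 time in the Cdk6 window, and 6.02% of 32851 RefSeq windows of this length held it on either strand. The sequence CACGTG reads the same on both strands. Cdk6 also held TATAAA, found in 12.4% of windows. The Cdk6 window lies inside the RefSeq span of its gene (3341004 to 3531008), while the Cdk4 window ends directly before the span of Cdk4 (127063535 to 127067288). Myc, which encodes the best known E-box factor, was at a log2 fold change of 0.05 with an adjusted p of 0.286 in edgeR, and Mycn, its close relative, fell by 0.31 on the log2 scale.

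Of the CIP/KIP inhibitors, Cdkn1b fell, Cdkn1c was lower without passing the test, and Cdkn1a was not called. Cdkn1b (chromosome 6, 134920401 to 134925525) encodes p27. It had 57.5, 55.5 and 53.6 CPM in the LIP libraries, against 67.2, 64.2 and 64.1 CPM in the NL libraries. The groups were well apart, and the log2 fold change was -0.23 ± 0.04 with an adjusted p of 4.85e-05 in edgeR. The call held in 17 of 19 alternatives, every leave-one-out fit included, with log2 fold changes from -0.26 to -0.10. The exceptions were the fits on uncentred TPM, where Cdkn1b was at -0.10 with an adjusted p of 0.0825 or 0.0835 by limma-trend. It was the only member whose 3 LIP libraries lay below all 3 NL libraries on both scales, with 43.7, 43.6 and 41.1 TPM in LIP and 47.6, 45.0 and 45.3 TPM in NL.

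Cdkn1c (chromosome 7, 143458339 to 143461059) encodes p57, and in mice it is an imprinted gene. It was the least counted member, with 77, 88 and 75 counts in the LIP libraries, against 98, 99 and 86 counts in the NL libraries. In CPM these were 4.26, 4.60 and 3.92 in LIP, against 5.58, 5.62 and 4.90 in NL, so the groups did not overlap, by a narrow margin. The log2 fold change was the largest of the family, -0.33 ± 0.13, but the adjusted p was 0.0514 in edgeR. Cdkn1c was called in 2 of 19 alternatives, with an adjusted p of 0.0446 without NL replicate 3 in edgeR and 0.0386 on centred TPM by limma-trend. In DESeq2 the adjusted p was 0.203. The 95% interval of -0.60 to -0.07 is not adjusted for the number of genes. Counting alone gives a coefficient of variation of 11.2% in LIP and 10.3% in NL here, and the libraries of each group varied by less than its own counting value, in NL by 7.58%.

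Cdkn1a (chromosome 17, 29090979 to 29100722) encodes p21, the classic p53 target that arrests cells after DNA damage. It had 15.8, 15.7 and 14.3 CPM in the LIP libraries, against 15.7, 14.2 and 13.6 CPM in the NL libraries. The ranges overlapped, and the log2 fold change of 0.07 (95% interval -0.09 to 0.24) had an adjusted p of 0.531 in edgeR. On uncentred TPM it was 0.20 with an adjusted p of 0.0294 by limma-trend.

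The windows before the starts of Cdkn1b and Cdkn1a are shown for the member that fell most clearly and for the p53 target (RefSeq, GRCm38.p6, plus strand, chr6:134920151-134920400 and, for the upstream of 2 listed Cdkn1a starts, chr17:29090729-29090978). Capitals mark CCAAT in Cdkn1b, the box that NF-Y recognises, and in Cdkn1a the pair of ACATGT separated by 4 bases, which has the spaced CATG cores of a p53 response element.
Cdkn1b: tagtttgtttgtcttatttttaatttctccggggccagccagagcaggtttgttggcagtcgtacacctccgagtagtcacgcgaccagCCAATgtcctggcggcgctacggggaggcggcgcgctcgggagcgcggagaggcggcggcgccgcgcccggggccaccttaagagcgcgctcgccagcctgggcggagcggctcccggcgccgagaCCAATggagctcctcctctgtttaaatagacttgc
Cdkn1a: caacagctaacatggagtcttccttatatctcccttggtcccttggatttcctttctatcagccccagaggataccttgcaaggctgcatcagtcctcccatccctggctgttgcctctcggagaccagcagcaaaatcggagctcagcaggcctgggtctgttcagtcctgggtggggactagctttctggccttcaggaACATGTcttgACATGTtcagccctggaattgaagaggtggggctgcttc
CCAAT on either strand was in 33.8% of the 32851 windows. The spaced pair of ACATGT, a motif written down after the Cdkn1a window had been read, was in 4 windows, or 0.0122%, and it reads the same on both strands. Promoter windows were matched for 7 of the 10 genes, with 10 starts. Ccnd1, Ccnd2 and Cdkn1c had no entry. GGGCGG, the GC box, stood at 7 of the 10 starts and in 32.7% of all windows. No E2F site written as TTTCCCGC, TTTCGCGC, TTTGCCGC or TTTGGCGC stood on either strand at the 10 starts. Only 1.86% of all windows held one, so 10 starts are too few to show a lack of such sites. No match of one motif overlapped a match of another in these windows, and a match is a description of letters, not of binding.

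The INK4 inhibitors Cdkn2c and Cdkn2d were not called. Cdkn2c (chromosome 4, 109660876 to 109666756) encodes p18. It had 45.0, 46.0 and 47.0 CPM in the LIP libraries, against 43.7, 43.4 and 47.0 CPM in the NL libraries, and overlap came from NL replicate 3 alone. Its log2 fold change was 0.04 (95% interval -0.06 to 0.14) with an adjusted p of 0.571 in edgeR. Cdkn2d (chromosome 9, 21288459 to 21291421) encodes p19. It had 29.6, 28.0 and 30.1 CPM in the LIP libraries, against 28.5, 28.4 and 28.0 CPM in the NL libraries, at a log2 fold change of 0.05 (95% interval -0.07 to 0.16) with an adjusted p of 0.591 in edgeR. The intervals of both genes leave out rises as large as that of Cdk6. On uncentred TPM both were called higher, Cdkn2c at 0.17 and Cdkn2d at 0.18, and in TPM neither overlapped between the groups. Less the 0.12 by which the median of all genes was higher in LIP on that scale, these were 0.04 and 0.05. The other INK4 genes were close to silent, Cdkn2a with between 0 and 2 counts in a LIP library and between 0 and 2 in an NL library, and Cdkn2b with 2, 0 and 0 counts in LIP and 0 in every NL library. Differences in them were not detectable at this depth. Cdkn3, a phosphatase that acts on CDKs, was at -0.14 with an adjusted p of 0.21 in edgeR.

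Shares of TPM within each library show the make-up of the family without any choice of library scaling. They set transcripts of unlike length against each other, so they still carry any trend on length. With the length offset in edgeR the log2 fold change of Ccnd2 went from -0.11 to -0.15 and that of Cdkn2d from 0.05 to 0.12. Ccnd2 made up 25.3%, 27.9% and 24.9% of the summed D cyclin TPM in the LIP libraries, against 26.4%, 28.0% and 28.1% in the NL libraries. The groups overlapped, with means of 26.0% ± 1.62 in LIP and 27.5% ± 0.912 in NL (SD, n = 3 each) and a two-sided exact permutation p of 0.2, where 0.1 is the smallest p this design allows. Ccnd1 made up 7.17% ± 0.185 in LIP and 7.75% ± 0.215 in NL, without overlap, and Ccnd3 66.8% ± 1.72 in LIP and 64.8% ± 1.10 in NL, with overlap. Within the CIP/KIP inhibitors, Cdkn1b made up 69.4%, 68.3% and 69.9% in the LIP libraries, against 71.4%, 72.0% and 73.3% in the NL libraries. Cdkn1a made up 24.1%, 24.5% and 23.7% in LIP and 21.1%, 20.2% and 19.7% in NL. Neither share overlapped between the groups, and Cdkn1c, at 6.68% ± 0.411 in LIP and 7.46% ± 0.414 in NL, did overlap. The INK4 genes held 58.8% ± 1.34 of the summed inhibitor TPM in LIP and 55.2% ± 1.34 in NL, without overlap. All shares other than that of Ccnd2 were chosen after the values were seen and are given without a test.

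**Figure D4:**
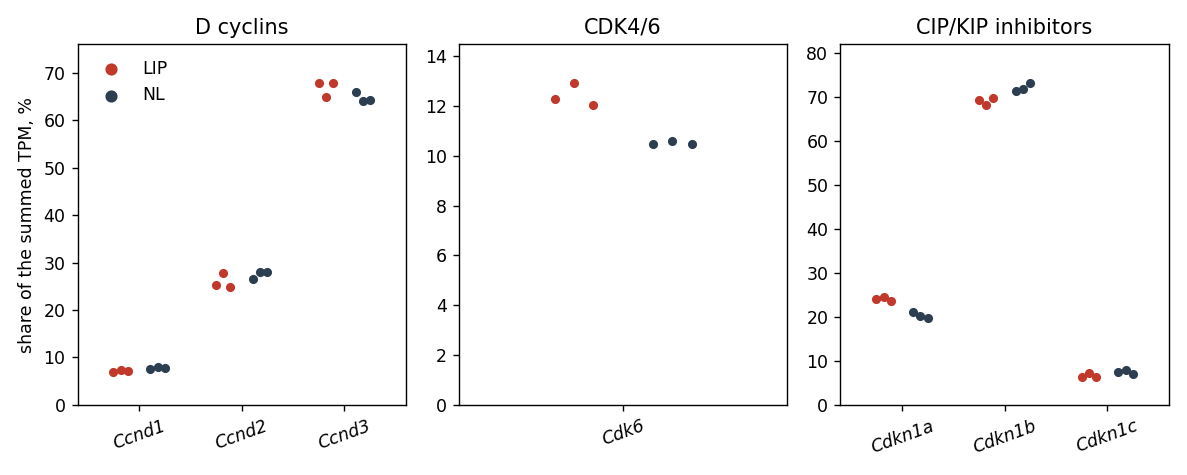
Share of the summed TPM held by each D cyclin, by Cdk6 within Cdk4 and Cdk6, and by each CIP/KIP inhibitor, with a point for each library (n = 3 each, LIP left of NL, all axes from 0). The Cdk6 share lies between 12.1% and 12.9% in LIP and between 10.5% and 10.6% in NL.

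The balance of inhibitors to cyclins and kinases differed by less than the spread between libraries. The summed TPM of the 5 inhibitors was 12.4%, 12.5% and 11.9% of the summed TPM of D cyclins, Cdk4 and Cdk6 in the LIP libraries, against 12.3%, 12.3% and 12.2% in the NL libraries. On the log2 scale the means of this ratio were -3.03 ± 0.04 in LIP and -3.03 ± 0.01 in NL, with a difference of -0.0041 and a two-sided exact permutation p of 1. LIP replicates 1 and 2 were higher than every NL library and LIP replicate 3 was lower, and without LIP replicate 3 the difference was 0.018. The ratio also joins parts that went in opposite directions. Summed INK4 TPM was 88.4 ± 1.25 in LIP and 78.6 ± 1.63 in NL (SD, n = 3 each). Summed CIP/KIP TPM was 61.9 ± 2.67 in LIP and 63.7 ± 2.66 in NL. In CPM, which is not per length, the difference was -0.09 with an exact permutation p of 0.1, the smallest possible here.

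The lists of genes around this machinery are described by their counts in edgeR, to be read against the 29.9% of all tested genes that were called. Of 18 RB and E2F pathway genes 4 rose and 2 fell, with a median log2 fold change of -0.01, and without NL replicate 3 only 2 rose and 1 fell. Rb1, which encodes the retinoblastoma protein, rose by 0.25 to 43.7 ± 2.39 CPM in LIP, against 36.7 ± 2.19 CPM in NL. E2f8, an atypical repressor E2F, rose by 0.22, Mybl2, a cell cycle activator, rose by 0.15, and E2f6, a repressor, fell by 0.18 on the log2 scale. The call of E2f6 was lost without NL replicate 1 (adjusted p 0.0533 in edgeR) and that of Mybl2 without NL replicate 3 (0.0549). E2f1 was at 0.03 with an adjusted p of 0.654. On uncentred TPM 8 genes of this list were called higher and none lower by limma-trend, with 0 lower also at an unadjusted p below 0.05.

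Of 9 genes for cyclins E and A, CDK2 and CDK activation 2 fell and none rose in edgeR, DESeq2 or limma-voom, 0 of them also at an unadjusted p below 0.05, with a median of -0.05. Those that fell were Ccne2, which encodes cyclin E2 and whose counts were not whole, by 0.36 and Ccnh, a subunit of the CDK-activating kinase, by 0.21. On uncentred TPM 3 of the 9 were called higher and 1 lower. Ccne1 was at 0.02 (adjusted p 0.829 in edgeR) and Cdk2 at -0.05 (0.402), and on uncentred TPM Cdk2 was at 0.06. Of 13 genes in the turnover of D cyclins and CDK inhibitors 4 fell and none rose in any of the same 3 tests, also at an unadjusted p below 0.05, with a median of -0.01, while on uncentred TPM 7 were called higher and 1 lower. Skp2, which marks p27 for destruction, fell by 0.23, and its cofactor Cks1b by 0.20. Rbx1 and Skp1a, further ubiquitin ligase subunits, fell by 0.34 and 0.19. The call of Cks1b was lost with the length offset, at -0.03 with an adjusted p of 0.632 in edgeR. Rbx1 counts were not whole.

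Of 20 upstream regulators 4 rose and 2 fell, with a median of -0.00248, and on uncentred TPM 8 were called higher and 1 lower. Without NL replicate 3 only 2 rose and 1 fell, and in DESeq2 2 rose and 2 fell. Gfi1, a repressor that restrains stem cell cycling, rose by 0.18 and Notch1 by 0.12, and Mycn was among those that fell. The call of Notch1 was lost without LIP replicate 2 (adjusted p 0.063 in edgeR). It was also lost with the length offset, at 0.06 with an adjusted p of 0.187 in edgeR, and on centred TPM (0.0661 by limma-trend). Trp53, which encodes p53, rose by 0.09 with an adjusted p of 0.0405. That call was lost without LIP replicate 1, LIP replicate 3, NL replicate 2 or NL replicate 3, with adjusted p in edgeR of 0.0917, 0.216, 0.136 and 0.135. DESeq2 and limma-voom did not call Trp53 either, at adjusted p of 0.0864 and 0.0569.

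Of 16 p53 target genes other than Cdkn1a 4 fell and none rose in edgeR, 3 fell in DESeq2 and 4 in limma-voom, and 0 rose in these tests also at an unadjusted p below 0.05. The median was -0.13. Bbc3, a death gene, fell by 0.42, Trp53inp1 by 0.25, Ccng1, an atypical cyclin, by 0.25 and Btg2, an antiproliferative gene, by 0.16 on the log2 scale. The call of Btg2 was lost without LIP replicate 1, LIP replicate 2 or NL replicate 2, with adjusted p in edgeR of 0.0723, 0.0671 and 0.0995. On uncentred TPM 2 of these targets were called higher and 2 lower.

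Of 19 proliferation markers 1 rose and 3 fell, with a median of -0.02. Pcna, the replication clamp, fell to 457 ± 3.55 CPM in LIP, against 543 ± 10.6 CPM in NL. Cdk1, the mitotic kinase, fell by 0.23 and Cdc6, a replication licensing factor, by 0.15, while Aurkb, a mitotic kinase of chromosome segregation, rose by 0.23. The call of Cdc6 was lost without NL replicate 3 (adjusted p 0.0592 in edgeR). Mki67, which encodes the proliferation antigen Ki-67, was at 0.07 with an adjusted p of 0.137, and without LIP replicate 3 at 0.12 with an adjusted p of 0.0061. On uncentred TPM 12 markers of this list were called higher and 2 lower. Of 11 stem cell markers 1 rose in edgeR and in limma-voom and 0 in DESeq2, with 1 higher in DESeq2 at an unadjusted p below 0.05. None fell in edgeR, DESeq2 or limma-voom, with 1 lower at an unadjusted p below 0.05 in edgeR, and the list median was 0.06. Without LIP replicate 3 edgeR called 0 of these markers (1 higher at an unadjusted p below 0.05), without NL replicate 2 also 0 (0 unadjusted), without LIP replicate 1 it called 1 lower and 0 higher (1 higher unadjusted), and without NL replicate 1 it called 1 in each direction.

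**Figure D5:**
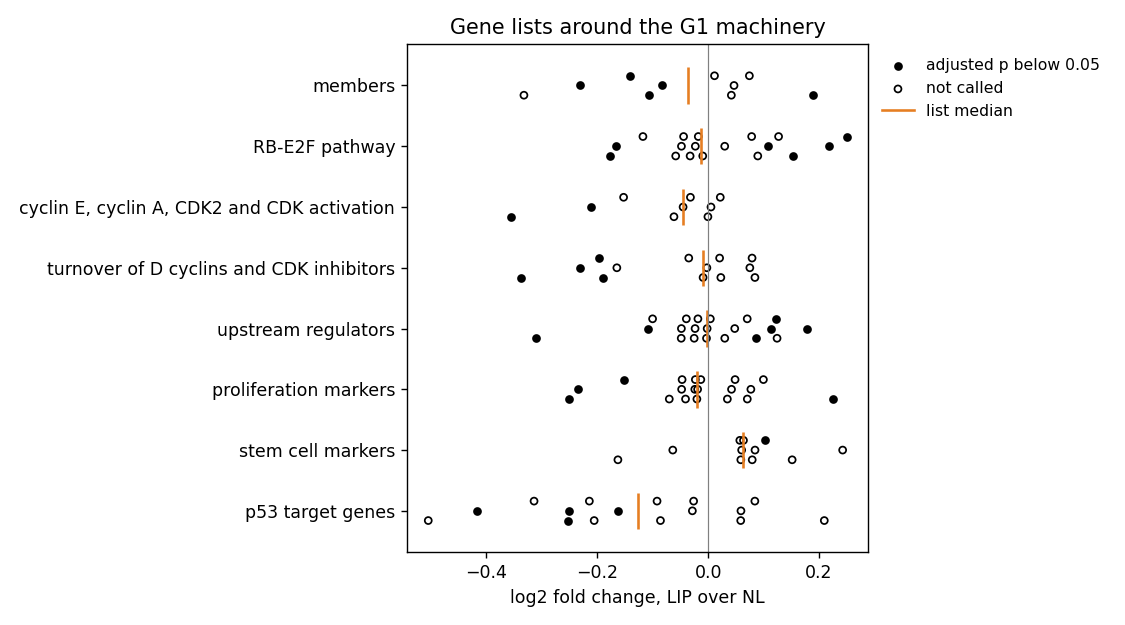
Log2 fold change of LIP over NL for every tested gene of the family and of 7 related lists, filled where the adjusted p was below 0.05 in edgeR, with the median of each list in orange. List medians lie between -0.13 for p53 targets and 0.06 for stem cell markers.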

How the data were processed

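Messenger RNA of 6 libraries had been sequenced as 100 bp paired-end reads after polyA selection, on average 45.0 M reads for each, as the labels' protocols state. The authors deposited estimated counts, FPKM values and TPM values for each library, per the file headers, and 6 columns of group means by the authors that were not used. The submitters' processing notes list STAR, the read counter HTSeq and GRCm38 with no role for any of them. Whether HTSeq or another program gave the deposited counts is not stated in the sources used. Counts had been planned as whole, but 2922 genes had decimals, so estimated counts were rounded. Genes were filtered with filterByExpr, scaled by TMM and tested with edgeR 4.0.16 in R 4.3.3 (quasi-likelihood, robust, group as the only term), with Benjamini-Hochberg adjustment over all 12564 tested genes and a threshold of 0.05. SE were derived from the F statistic. The fitting code was tested on simulated data. Deposited FPKM and TPM were tested with limma 3.58.1 (limma-trend) on log2 of the value plus 0.1 or 1, which understates changes of low genes. DESeq2 1.42.0 was an alternative. The length offset was a lowess curve (span 0.3) on effective length, from deposited FPKM and counts. Permutation tests used SciPy 1.17.1.

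Within a group, libraries differed by 1.86 to 2.78 times the variance of counting (chi-square per degree of freedom), so none was a copy of another. The edgeR p-values set the difference between groups against the spread between pools, with each gene's variance drawn toward a trend over all genes. They and the SE thus rest partly on other genes, and not on the 3 pools per group alone. Cdk6 and Ccnd2 both had an SE of 0.03, at coefficients of variation of 0.123% and 2.55% in NL. The labels do not say whether pools or groups were processed on different days, and a part of processing in the differences was not tested. Members and lists were chosen with earlier results of these data known. All 10 members are named. Of each related list up to 4 called genes with the smallest p are named, any gene that was alone in its direction, and Rb1, E2f1, Ccne1, Cdk2, Trp53, Myc, Mki67, Kit and Ly6a. Some genes that this rule names are not reported here. Cdkn2a, Cdkn2b and Cdkn3 were named after their values were seen. Gene positions are from RefSeq on GRCm38.p6, matched by gene identifier.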

Additional observations from a re-analysis of the deposited data

How the results depend on the processing

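Over 19 alternatives to each gene result, Ccnd2, Ccnd3 and Cdk4 changed sign in 2, 3 and 2 of them, and no other member did. Cdk6 kept its call in 19 and Cdkn1b in 17 of the 19. The number of members called was 5, and fell to 2 with total counts alone and 2 on log2(FPKM + 0.1), and ranged from 3 to 5 when a library was left out, with 3 without LIP replicate 1, LIP replicate 2 or NL replicate 1. The number of genes called was 3760, against 2484 with DESeq2 and 2987 to 3397 when a library was left out. Higher and lower calls over all genes were 1776 and 1984, but 2756 and 1301 with total counts alone, and 4642 and 547 on log2(TPM + 0.1). On log2(TPM + 0.1) and log2(TPM + 1) Ccnd2 turned to 0.0195 and 0.0193, Cdk4 to 0.0455 and 0.0455, Cdk2 to 0.0575 and 0.057, and Ly6a to 0.0609 and 0.0601. With the length offset Ly6a turned to 0.0583 and Cdkn3 to 0.0123. With a library left out, Ccnd3 ranged from -0.0171 to 0.0587 and Ccne1 from -0.0163 to 0.0526, the log2 ratio of inhibitors to cyclins and kinases differed by -0.018 to 0.018, and the Ccnd2 share by -2.39 to -0.897 percentage points. The reasons for these shifts were not tested. Libraries of the same replicate number showed no shared deviation (correlation of deviations -0.103 to 0.0189, against -0.13 to 0.129 for unlike numbers). With 3 libraries in each group this cannot show whether they were processed in pairs. With the replicate block 3729 genes and 4 members were called, and Cdk4 lost its call (adjusted p 0.056 in edgeR). Between 75 and 99 counts per library limit what can be said of Cdkn1c.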
